A study of Mus musculus with 4 samples.

Results

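Cytosolic ribosomal protein genes were described in the trachea of mouse embryos. They were taken as the genes whose symbol is Rpl or Rps with a number and at most a further letter, or is Rplp0 to Rplp2 or Rpsa, leaving out S6 kinases, pseudogenes and mitochondrial ribosomal proteins. This rule found 46 of the 18193 genes that the array names through probe sets with a single gene symbol, 24 of the large subunit and 22 of the small subunit, on 100 probe sets. For each gene the brightest probe set over the 4 arrays was used, and 42 genes passed the filter on dim probe sets, 22 large and 20 small. Rpl37, Rpl3l, Rps16 and Rps27 were below it and were not tested.

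The study set 2 a1H knockout tracheas against 2 wild-type tracheas at embryonic day 16, all on a C57BL/6 background, to find transcripts that differ between the genotypes. The series text speaks of homozygous embryos, while the allele, the deleted part and any pooling of embryos are not stated in the sources used. Each sample had 1 Affymetrix array of 45101 probe sets, hybridised with cDNA amplified from 50 ng of total RNA, and samples are numbered 1 and 2 in each genotype. The labels do not say that the samples are separate embryos. P-values therefore cover only how far these samples vary, and that variation may be technical. With 2 arrays a side, the smallest two-sided p of an exact permutation test is 0.333.

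Cytosolic ribosomes are built from ribosomal RNA and a fixed set of proteins, in a large subunit that joins amino acids and a small subunit that reads the messenger RNA. Cells make the proteins in matched amounts, and their messenger RNAs are among the most abundant of any growing tissue. In vertebrates these messenger RNAs begin with an unbroken stretch of pyrimidines, the terminal oligopyrimidine tract, through which the TOR pathway and Larp1 control their translation. The same genes are copied into many processed pseudogenes, so array probes for them often match several loci.

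The reference sequence at the start of these genes was searched for runs of pyrimidines. A run counted wherever it lay near the annotated start, also wholly before or after it, so it need not be a terminal oligopyrimidine tract. RefSeq promoter windows of the assembly GRCm38.p6, 300 bases long with 250 before and 50 after the annotated start, were found for 40 of the 46 genes. Counted were runs of C or T with at least 6 letters within 10 bases of the start, read on the gene's strand. They were present in 22 of 40 genes, or 55.0%. The share was 23.0% of all 27025 genes with a window and 26.9% of 67 mitochondrial ribosomal protein genes. The windows below hold 20 bases on each side of the start, 5′ to 3′ on the gene's strand. That run is in capitals, also where it reaches beyond the 10 bases. The list holds genes named further on, and ends with Rpl39 and the muscle relative Rpl3l. These have no run with 6 letters that near the start, though runs further out can occur.
Rpl27a (chr7:109519175-109519214, plus strand): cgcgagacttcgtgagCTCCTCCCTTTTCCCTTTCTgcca
Rplp2 (chr7:141447631-141447670, plus strand): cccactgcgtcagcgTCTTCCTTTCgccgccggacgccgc
Rpl38 (chr11:114668560-114668599, plus strand): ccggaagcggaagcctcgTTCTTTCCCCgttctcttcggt
Rps6 (chr4:86857348-86857387, minus strand): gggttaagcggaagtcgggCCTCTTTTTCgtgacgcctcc
Rps9 (chr7:3704021-3704060, plus strand): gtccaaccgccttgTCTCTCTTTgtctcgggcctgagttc
Rps10 (chr17:27635225-27635264, minus strand): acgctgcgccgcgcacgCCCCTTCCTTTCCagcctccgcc
Rps26 (chr10:128626487-128626526, minus strand): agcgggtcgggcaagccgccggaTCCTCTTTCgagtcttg
Rps27l (chr9:66946066-66946105, plus strand): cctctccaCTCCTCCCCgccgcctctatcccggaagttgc
Rpl39 (chrX:37085203-37085242, minus strand): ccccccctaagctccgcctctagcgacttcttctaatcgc
Rpl3l (chr17:24727806-24727845, plus strand): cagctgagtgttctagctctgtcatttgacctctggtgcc

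The letters CCGGAAG, a core of ETS-family sites and searched on both strands over the whole window, were present in 20 of 40 ribosomal protein genes, or 50.0%, against 9.93% of all genes and 37.3% of mitochondrial ribosomal protein genes. They stand at the left end of the printed Rpl38 window. The letters AAGATGG, a core of YY1 sites that can overlap the last letters of CCGGAAG, were present in 7 of 40 genes, or 17.5%, against 7.28% of all genes and 19.4% of mitochondrial ribosomal protein genes. The letters TATAAA were searched only on the gene's strand, in a short stretch before the start. They were found there in none of the 40 genes and in 2.41% of all genes. Large and small subunit genes had CCGGAAG equally often, at 50.0% each, and the pyrimidine run in 59.1% and 50.0%. Genes with several annotated starts count once if any window holds the letters, and among genes with a single window the shares were 54.5% of 33 against 9.12% of all for CCGGAAG, and 54.5% against 19.9% for the run. A match of letters describes the reference sequence only.

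The arrays differed in ways that bear on genes this bright. Values are MAS5 signals, brightness on a linear scale, and log2 values are of the signal plus 16. The geometric mean of the 9 hybridisation control probe sets was 6258 and 18565 on labelled knockout arrays 1 and 2, against 6361 and 14756 on wild-type arrays 1 and 2. Median signals over all probe sets were 426 and 320, against 459 and 416. The highest signal was 34126 and 99957, against 36376 and 80349, so the number 2 arrays of both genotypes reached further up. The labels do not say whether a number marks a shared batch. Of the 18193 genes, 11694 passed the filter and were tested. Cacna1h, taken here as the a1H gene, which encodes a T-type calcium channel subunit, had a signal of 806 ± 248 in the labelled knockout and 584 ± 64.5 in wild type (SD, n = 2 each), a log2 difference of 0.43 (SE 0.32, limma adjusted p = 0.875). The position of its probes relative to the deleted part is unknown, so it does not check the labels, and the group is called the labelled knockout.

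The ribosomal protein genes read slightly brighter in the labelled knockout as a group, and no gene passed the test. With limma and Benjamini-Hochberg adjustment over all genes tested, 0 of 42 had an adjusted p under 0.05, as did 0.0% of all genes, and the smallest adjusted p among the 42 was 0.875. At an unadjusted p under 0.05 the count was also 0 of 42, against 2.83% of all genes higher and 1.75% lower. The log2 difference (labelled knockout over wild type) was above 0 in 36 of 42 genes, while 55.9% of all genes had one above 0. Its median was 0.15 over the 42 genes, against 0.04 over all genes. The sign of this median rested on which arrays were present. It was 0.49 when labelled knockout array 1 was left out and -0.23 when labelled knockout array 2 was, with 39 and 4 of 42 genes above 0. Leaving out wild-type array 1 gave -0.15 with 9 genes above 0, and leaving out wild-type array 2 gave 0.42 with 39. With some array left out the sign turned for each tested gene of the cytosolic ribosome described singly below, other than Rpl39, Rps6 and the relative Rpl7l1.

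Within replicate numbers the difference was uneven. Between the number 1 arrays the median log2 difference of the 42 genes was 0.06, and between the number 2 arrays it was 0.26, while over all genes it was 0.03 and 0.04. The difference was above 0 in both numbers for 28 of 42 genes, against 36.0% of all genes, and below 0 in both for 3, Rpl39, Rps9 and Rps14, against 26.3%. In no gene were both labelled knockout signals above both wild-type signals, a pattern found in 21.5% of all genes. It was rare in other bright genes too, at 2 of 280 with a mean log2 value of at least 14. The reverse pattern held for Rpl39 alone, against 14.6% of all genes and 24 of those 280 bright genes. The 2 differences of a gene correlated across the 42 genes at r = 0.57 (rho 0.36), a description in which the genes share the same 4 arrays.

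**Figure D1:**
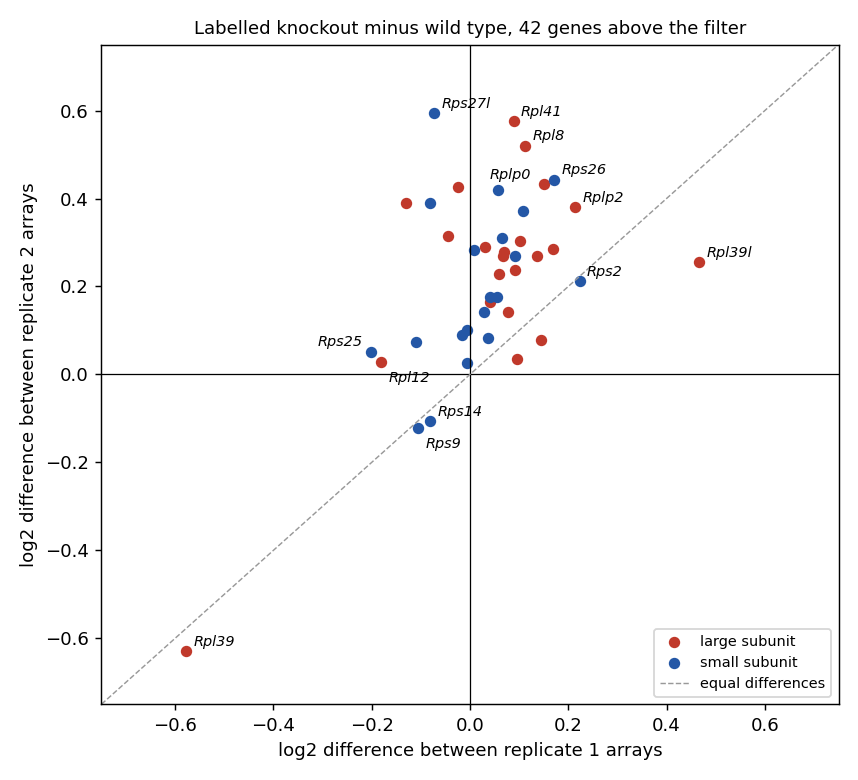
Log2 difference of signal plus 16, labelled knockout minus wild type, between the replicate 1 arrays (horizontal) and between the replicate 2 arrays (vertical) for the 42 genes above the filter. Red points are large subunit genes and blue points small subunit genes. Most points lie above the dashed line of equal differences, 28 lie to the upper right of both zero lines, and Rpl39 lies lowest of the 3 genes below both, with Rps9 and Rps14 nearer to 0.

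The spread between arrays of a genotype was larger than the difference between genotypes. The median member signal was 20457 and 33940 on labelled knockout arrays 1 and 2, against 19863 and 29387 on wild-type arrays 1 and 2. As log2 differences, array 2 minus array 1, this was a median of 0.72 in the labelled knockout and 0.59 in wild type, or 1.65-fold and 1.51-fold, while over all genes the medians were -0.05 and -0.06. Brighter signals on array 2 in both genotypes were found for 37 of 42 genes, against 26.2% of all genes. The array 2 minus array 1 differences in the labelled knockout and in wild type correlated across the 42 genes at r = 0.88 (rho 0.65), with wide gaps in some, such as 0.91 and 0.24 for Rps27l. These points share the arrays, the probe sets and their brightness, and the correlation is a description.

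**Figure D2:**
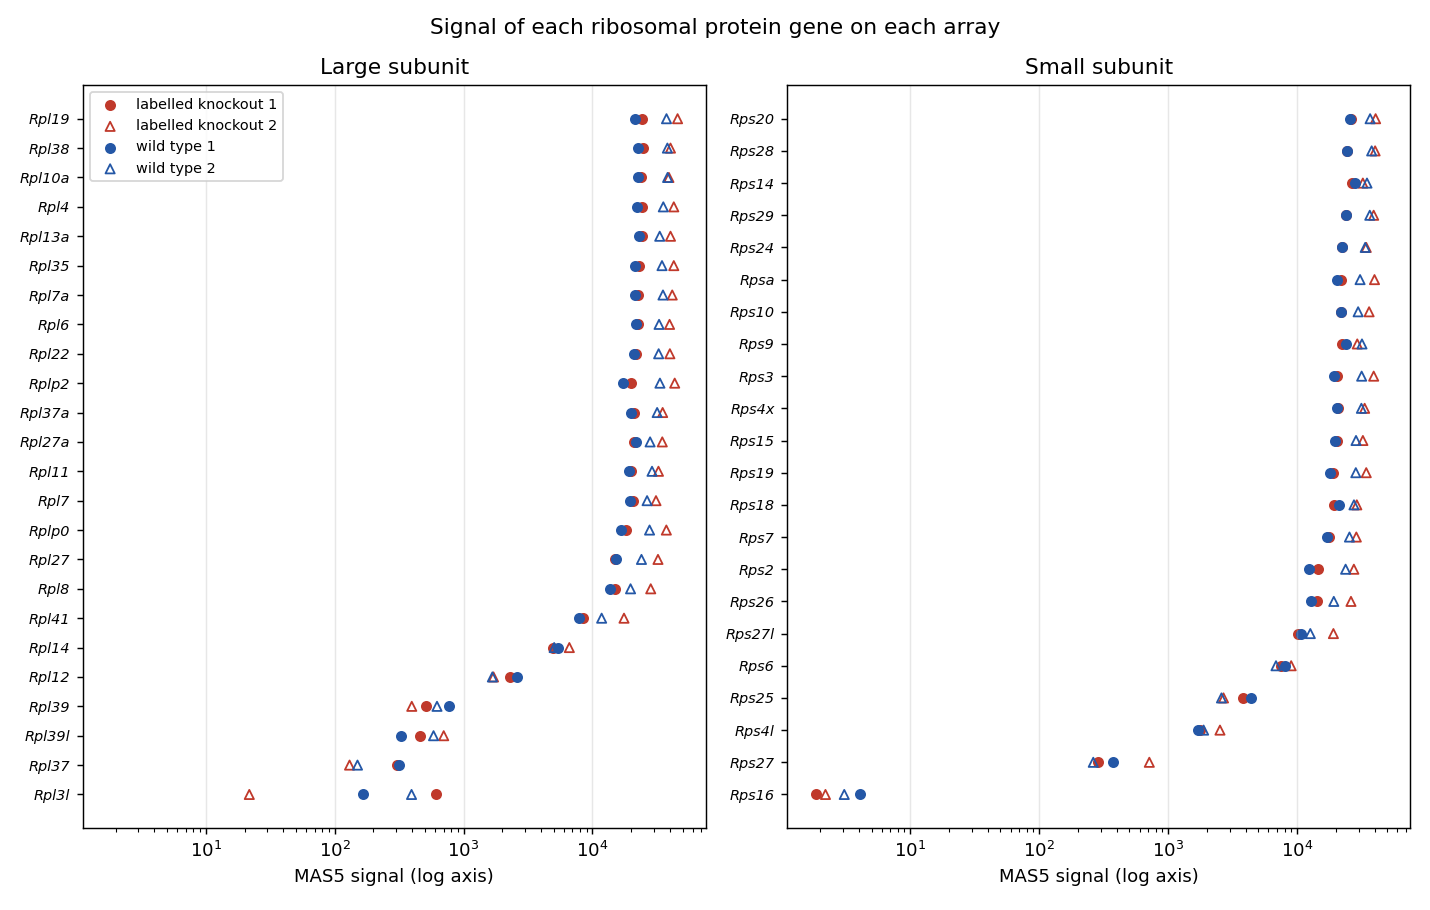
MAS5 signal (log axis) of the brightest probe set of each of the 46 genes on each array, large subunit on the left and small subunit on the right. Red marks are labelled knockout and blue marks wild type, with filled circles for replicate 1 and open triangles for replicate 2. In most rows the 2 circles lie together and the 2 triangles lie together to their right. Distances between rows depend on the probes and do not compare genes.

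Other bright genes shared that shift. Among the 280 other genes with a mean log2 value of at least 14, 261 were brighter on array 2 in both genotypes, with medians of 0.44 in the labelled knockout and 0.41 in wild type. All 33 ribosomal protein genes of that brightness were brighter on array 2 in both genotypes, with medians of 0.74 and 0.61. The genotype difference had a median of 0.15 in the 33 ribosomal protein genes and 0.03 in the 280 others, and it was above 0 in 30 of 33 and in 159 of 280. Between number 1 arrays these medians were 0.07 and 0.00, and between number 2 arrays 0.24 and 0.03. Some dimmer ribosomal protein genes went the other way between arrays. Rpl12, which binds at the base of the stalk, had 2304 and 1708 in the labelled knockout, against 2612 and 1674 in wild type, and was dimmer on array 2 in both.

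**Figure D3:**
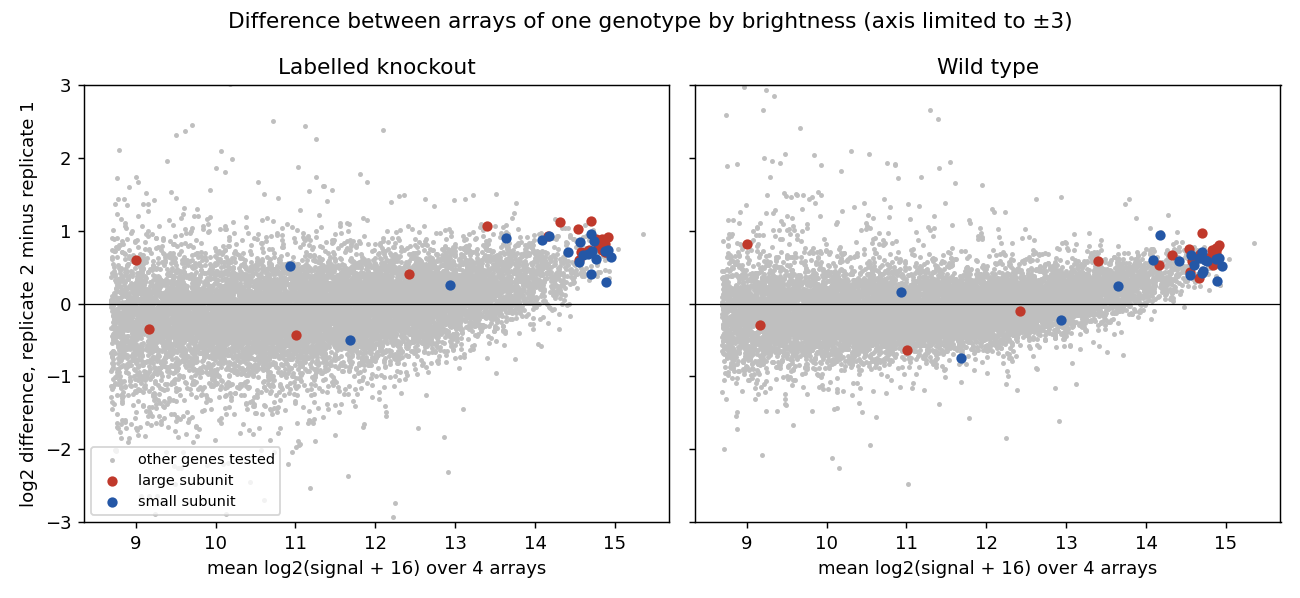
Log2 difference between the arrays of a genotype, replicate 2 minus replicate 1 (vertical), against mean log2(signal + 16) over the 4 arrays (horizontal), with labelled knockout on the left and wild type on the right. Grey points are other genes tested, red points large subunit genes and blue points small subunit genes, and the vertical axis ends at 3 on each side. Genes brighter than 14 lie mostly above 0 in both panels, ribosomal protein genes among them.

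Large subunit genes had the higher median difference of the subunits. Of 22 large subunit genes 20 had a log2 difference above 0, with a median of 0.17, and of 20 small subunit genes 16 did, with a median of 0.11. Both numbers agreed on a positive sign in 17 large and 11 small subunit genes. Between number 1 arrays the medians were 0.08 for large and 0.02 for small, and between number 2 arrays 0.27 and 0.18. Among the genes with a mean log2 of at least 14, all 17 large subunit genes and 13 of 16 small subunit genes had a positive difference.

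The gap between the subunits was within the spread between arrays. The large minus small difference of the median log2 signal was 0.02 and 0.16 on labelled knockout arrays 1 and 2, against -0.02 and 0.05 on wild-type arrays 1 and 2. The highest value thus came from labelled knockout array 2, and the other labelled knockout array lay between the wild-type arrays. The difference of the 2 medians over genes was 0.05, and it was 0.0030 with labelled knockout array 2 left out and 0.16 with labelled knockout array 1 left out.

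In the large subunit, the proteins of the stalk, the flexible arm that draws in elongation factors, included genes with wide values. Rplp0, the base of the stalk, had signals of 18334 and 37442 in the labelled knockout, against 16511 and 27743 in wild type. That is a mean of 27888 ± 13511 against 22127 ± 7942 (SD, n = 2 each) and a log2 difference of 0.29 (SE 0.43, limma adjusted p = 0.930). Rplp2, an acidic stalk protein, had 19861 and 43473 in the labelled knockout, against 17122 and 33387 in wild type, a log2 difference of 0.30. The groups overlapped for both genes, because each genotype's array 1 was far below its array 2. Rpl12 had a log2 difference of -0.08, and of 0.15 when probe sets shared with pseudogenes were let in.

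Rpl41 and Rpl8 had the largest positive differences among large subunit genes other than the dim Rpl39l, described below. Rpl41, an exceptionally short basic protein, had 8387 and 17575 in the labelled knockout, against 7884 and 11787 in wild type, a log2 difference of 0.33 (SE 0.37, limma adjusted p = 0.905). Rpl8, which lies beside the catalytic centre of the subunit, had 14862 and 28329, against 13746 and 19754, a log2 difference of 0.32. In both genes the number 1 arrays were close, with differences of 0.09 and 0.11, and the number 2 arrays were apart by 0.58 and 0.52. Rpl14 had 4971 and 6619 in the labelled knockout, against 5443 and 5048 in wild type, so its sign differed between the numbers.

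Rpl39 was the gene whose groups did not overlap. It encodes a small protein of the tunnel through which the new chain leaves the ribosome, and lies on the X chromosome. Signals were 508 and 397 in the labelled knockout, against 767 and 623 in wild type, a mean of 453 ± 79.1 against 695 ± 102 (SD, n = 2 each). The log2 difference was -0.60 (SE 0.30, limma adjusted p = 0.875), with -0.58 between number 1 and -0.63 between number 2 arrays. This probe set is dim, just above the filter signal of 397, and a brighter probe set for Rpl39 that also lists other loci gave a log2 difference of -0.10. Rps4x, the other X-linked gene with values, had 20899 and 33452 in the labelled knockout, against 20380 and 31568 in wild type, a log2 difference of 0.06.

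In the small subunit, Rps26 had the highest difference. Rps26, a protein of the channel through which messenger RNA leaves, had 14344 and 26210 in the labelled knockout, against 12737 and 19281 in wild type, a log2 difference of 0.31 (SE 0.36, limma adjusted p = 0.914). Rpsa, a neighbour on the exit side also known as the laminin receptor precursor, had 21947 and 39895, against 20355 and 30831, a difference of 0.24. Rps2, on the entry side, had a difference of 0.22, with 0.22 and 0.21 in the 2 replicate numbers. For these 3 genes each labelled knockout array was brighter than the wild-type array of its number, and the groups overlapped.

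Rps9 and Rps14 had the lowest differences of the small subunit. Rps9, also near the entry site, had 22204 and 29328 in the labelled knockout, against 23890 and 31901 in wild type, a log2 difference of -0.11. Rps14, whose loss in humans goes with the anaemia of a chromosomal deletion syndrome, had 26508 and 32409, against 28038 and 34885, a difference of -0.09. Both differences were positive, at 0.05 and 0.10, when all probe sets of the gene were averaged. Rps6, the substrate of the S6 kinases, had 7556 and 9006 in the labelled knockout, against 8000 and 6867 in wild type, a difference of 0.15 with opposite signs in the 2 numbers.

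Relatives of ribosomal proteins, some of them tissue-restricted or inducible, had a positive log2 difference in 5 of 5 genes above the filter. Their median was 0.26, and the difference was positive in both replicate numbers in 3 of 5. Rpl39l, a relative of Rpl39 that is abundant in testis, had 457 and 702 in the labelled knockout, against 326 and 585 in wild type, a difference of 0.36. Rps27l, a relative of Rps27 that p53 induces, had 10209 and 19152, against 10737 and 12677, a difference of 0.26 that came from the number 2 arrays. Rps4l had 1760 and 2524, against 1692 and 1884, a difference of 0.24. Rpl22l1 and Rpl7l1, relatives whose symbols fall outside the member rule, had 0.02 and 0.29.

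Rpl3l, the relative of Rpl3 that is made in heart and skeletal muscle, was below the filter, with signals of 608 and 21.8 in the labelled knockout, against 167 and 395 in wild type. Among muscle genes chosen after their values were seen, the atrial light chain Myl7 had 19247 and 828 in the labelled knockout, against 13358 and 7225 in wild type. The atrial peptide Nppa had 15926 and 131, against 7728 and 2974. Labelled knockout array 2 was thus the lowest for Rpl3l and for both heart genes, while Rpl3l did not follow their order on the wild-type arrays. The heart marker Myh6 had the order of Myl7 and Nppa, with 16214 and 294 in the labelled knockout, against 9554 and 3202 in wild type. Myl4, Actc1 and Tnnt2 differed from this order. Myl4 had 17288 and 27424 in the labelled knockout, against 15097 and 18600 in wild type. Actc1 and Tnnt2 on labelled knockout array 2 were also above both wild-type arrays. The 6 heart markers, all above the filter and above 100 on every array, summed to 113113 and 78098 in the labelled knockout, against 81618 and 71243 in wild type. The part of heart tissue in the Rpl3l values was not tested.

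The genes of 2 lists of known phenotypes had positive differences as deposited, and none passed the test. All 9 measured genes of 14 on the Diamond-Blackfan anaemia list, a human failure of red cell production caused by loss of a copy of a ribosomal protein gene, had differences above 0, with a median of 0.12 (0.01 and 0.18 in the 2 numbers). They were Rps26, Rpl27, Rps19, Rps10, Rps7, Rpl11, Rps29, Rps28 and Rps24, with Rps24 lowest at 0.01. All 5 measured genes of 6 on a list of mouse skeletal, pigment and patterning mutants, Rps19, Rpl27a, Rps7, Rpl38 and Rps20, were above 0 as well, with a median of 0.12. After quantile normalisation Rpl38, Rps20, Rps24, Rps28 and Rps29 were below 0. Rpl38, the gene of the mouse mutant Tail-short with defects of the axial skeleton, had 24775 and 40307 in the labelled knockout, against 22409 and 38153 in wild type, a difference of 0.11 (SE 0.42, limma adjusted p = 0.977). Rpl11, which with the 5S particle binds Mdm2 when ribosome assembly fails, had 19816 and 32519, against 19255 and 28991, a difference of 0.10. Fau, which encodes a small subunit protein fused to a ubiquitin-like part, had 19348 and 33183, against 17263 and 26537, a difference of 0.24.

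Probe sets of a gene did not always give the same sign. The 42 genes had 88 single-symbol probe sets above the filter, of which 74 had a log2 difference above 0 and 67 were brighter on array 2 in both genotypes. Of the 57 with a mean log2 of at least 14, 54 were positive and 56 were brighter on array 2 in both. Of the 22 under 13, 11 were positive and 11 negative, and 3 were brighter on array 2 in both. Among 19 genes with several such probe sets, 10 had probe sets of both signs.

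The widest disagreement was in Rpl37a. Its dimmest probe set, of suffix x, had 317 and 230 in the labelled knockout, against 841 and 505 in wild type, a log2 difference of -1.23, while the other 2 probe sets of the gene gave 0.30 and 0.11. The suffix x marks probe sets whose probes can match other sequences. The brightest probe sets of Rpl37a and Rpl7, used here at 0.11 and 0.14, carry it too. For Rpl7 a probe set of suffix x gave -0.51 and the gene's highest was 0.23. The 5 probe sets of Rps24 ran from -0.38 to 0.07, and the 6 of Rps10 from -0.11 to 0.38. In each of these 4 genes the lowest probe set was dimmer on array 2 than on array 1 in both genotypes.

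**Figure D4:**
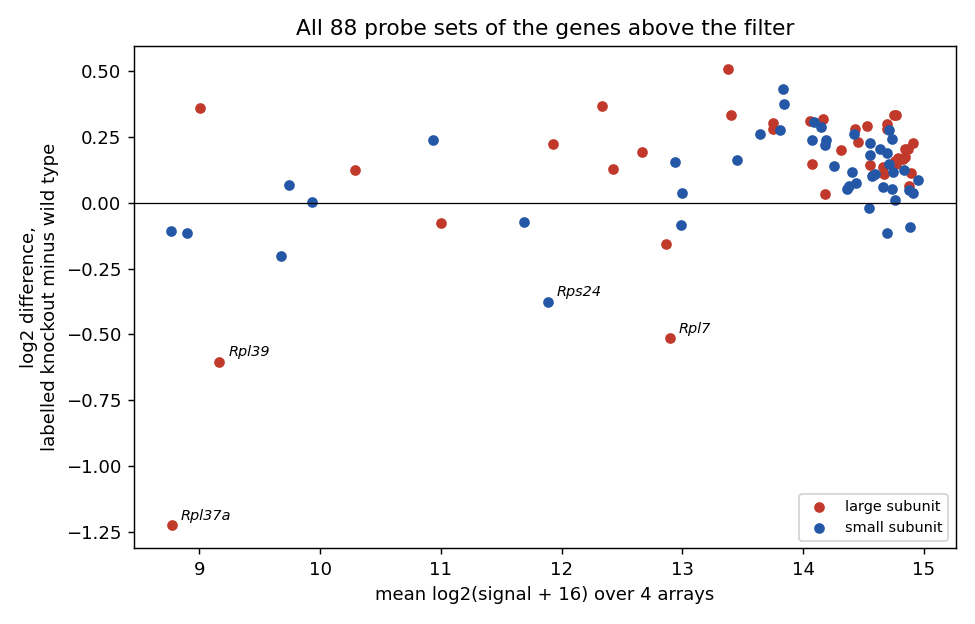
Log2 difference, labelled knockout minus wild type (vertical), against mean log2(signal + 16) over the 4 arrays (horizontal) for the 88 single-symbol probe sets above the filter, red for large and blue for small subunit genes. Above a mean of 14 all but 3 of 57 points lie above 0, and below 13 the points fall on both sides, with a probe set of Rpl37a lowest at -1.23.

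Probe sets that list a ribosomal protein gene beside further symbols gave a like picture. Such probe sets with exactly 1 member symbol numbered 109 and covered 41 genes, 26 of them with no single-symbol probe set. All 26 had a log2 difference above 0, with a median of 0.14, and 0.06 and 0.25 in the 2 replicate numbers. Their array 2 minus array 1 medians were 0.79 in the labelled knockout and 0.60 in wild type. With these probe sets let in, 67 of 71 genes were positive, with a median of 0.16 for 44 large and 0.11 for 27 small subunit genes.

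The differences were smaller under other scalings of the arrays. After quantile normalisation the median over the 42 genes was 0.06, with 0.05 and 0.06 in the 2 replicate numbers, and 29 of 42 genes were positive. The array 2 minus array 1 medians became 0.03 in the labelled knockout and 0.08 in wild type. Large subunit genes then had a median of 0.06, with 18 of 22 positive, and small subunit genes 0.02, with 11 of 20 positive. The groups then did not overlap in 6 of 42 genes that were higher in the labelled knockout and 5 that were lower, against 24.8% and 15.4% of all genes under that scaling. With each array centred on its median the value was 0.08, with 31 of 42 positive.

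Most genes of ribosome assembly and translation initiation also had differences above 0, while elongation factor genes were split. Of 69 genes of ribosomal RNA synthesis and processing, 61 were positive, with a median log2 difference of 0.27, and 0.18 and 0.35 in the 2 numbers. Noc4l, a factor of small subunit assembly in the nucleolus, had 5640 ± 144 in the labelled knockout and 3781 ± 351 in wild type (SD, n = 2 each), a log2 difference of 0.58. Mybbp1a, a nucleolar regulator, had 0.56, while Noc3l, of large subunit assembly, had -0.54. In that list the labelled knockout signals lay above both wild-type signals in 34 genes, against 21.5% of all genes. The pattern held in 0 of the 42 ribosomal protein genes and in 2 of the 280 other genes with a mean log2 of at least 14. Of 34 initiation factor genes, 30 were positive, with a median of 0.18. Eif6, which keeps free large subunits from joining small ones, had 4631 ± 691 in the labelled knockout and 3345 ± 238 in wild type (SD, n = 2 each), a difference of 0.46. Of 7 elongation factor genes, 3 were positive and the median was -0.03, although the medians in the 2 numbers were 0.03 and 0.09. Eef2, which moves the ribosome along, had 0.21. Of the 14 genes of TOR, Myc and p53 control, 12 were positive, with a median of 0.14. Tsc2, which restrains TOR, had 0.56.

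The mitochondrial ribosome, built from other proteins, had a larger median than the cytosolic one. Of its 76 genes, 73 were positive, with a median log2 difference of 0.33, and 0.21 and 0.44 in the 2 numbers. In 48 of them both labelled knockout signals were above both wild-type signals, against 21.5% of all genes, and 9 were higher with an unadjusted p under 0.05, against 2.83% of all genes. Mrps35 had 3366 ± 674 in the labelled knockout and 2199 ± 139 in wild type (SD, n = 2 each), a difference of 0.60. With each array left out in turn this difference ran from 0.39 to 0.80. The array 2 minus array 1 medians of this list were 0.27 in the labelled knockout and 0.00 in wild type. Respiratory chain, ATP synthase and complex assembly genes, 85 in all, had a median of 0.22, and 24 genes of mitosis had 0.32. None of these genes had an adjusted p under 0.05, and their smallest was 0.875. The difference between these lists and the ribosomal protein genes was not tested.

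**Figure D5:**
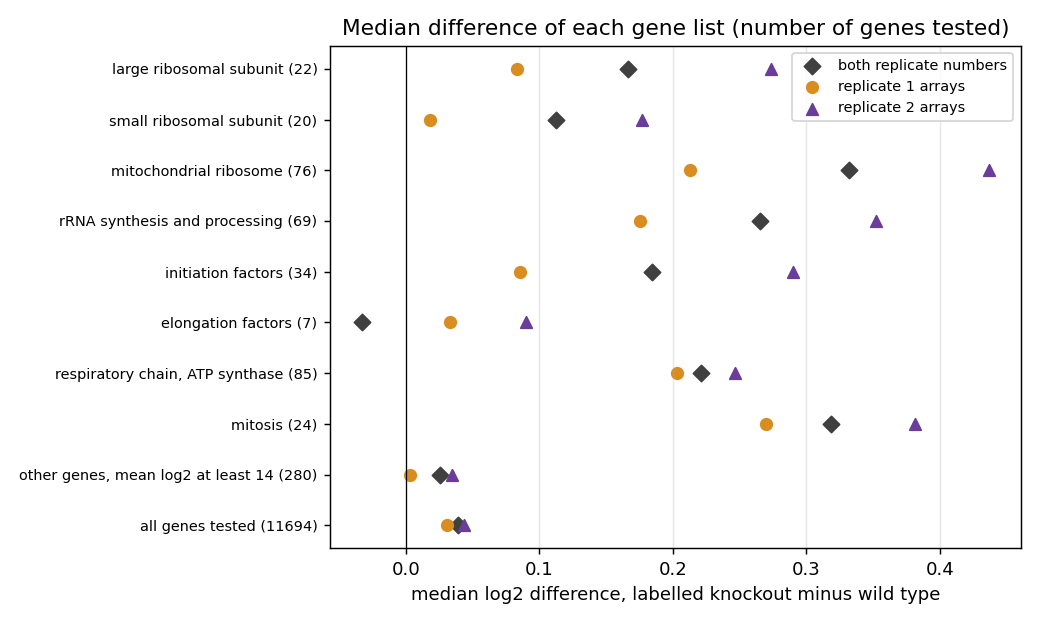
Median log2 difference, labelled knockout minus wild type (horizontal), for each gene list, with the number of genes tested in brackets. Diamonds use all 4 arrays, circles the replicate 1 arrays and triangles the replicate 2 arrays. Large and small subunit genes have diamonds at 0.17 and 0.11, below the mitochondrial ribosome at 0.33 and above all genes tested at 0.04.

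Signals of cell type markers differed between the samples, and the part of cell makeup in these values was not tested. In a bulk sample, fewer cells of a type and less RNA per cell cannot be told apart. The 7 cartilage, 8 airway epithelium and 6 airway smooth muscle markers had signals above 100 on every array. Cartilage markers summed to 55055 and 79988 in the labelled knockout, against 66060 and 82364 in wild type. The 4 placenta markers on the array summed to 347 and 114307 in the labelled knockout, against 369 and 592 in wild type, and the 5 liver and yolk sac markers to 2183 and 30786, against 704 and 45861. The placental signal was thus high on labelled knockout array 2 alone. That array also had the brightest ribosomal protein median and the highest mean of hybridisation controls. Wild-type array 2, with a placental sum of 592, came next in both. The 4 thymic epithelium markers summed to 14629 and 7966 in the labelled knockout, against 1805 and 4600 in wild type, and the 3 above the filter did not overlap between groups. The 8 thymocyte markers on the array summed to 27771 and 10938, against 4975 and 13424. All 6 above the filter had a positive difference over the 4 arrays, but only 2 in both replicate numbers. Their median log2 difference was 2.56 between number 1 arrays and -0.33 between number 2 arrays. Of these 6 genes, 2 did not overlap between groups. Groups apart with the labelled knockout higher, as in these thymus genes, were found in 21.5% of all genes. No marker was listed at 0 in these lists.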

How the data were processed

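Arrays of 2 labelled knockout and 2 wild-type tracheas were grouped by their titles. The deposited values are linear intensity signals, 1 per probe set and array. Per the submitters' processing notes they come from MAS5. Its version is not given in the sources used here. Probe sets were paired with genes through platform annotation (34945 with 1 gene, 932 with several, 9160 with none, 64 controls left out), and symbols were updated through RefSeq of GRCm38.p6. The brightest probe set per gene was kept, and 11694 genes with a mean log2(signal + 16) at or above the median of non-control probe sets were tested.

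Differences were fitted with limma 3.58.1 in R 4.3.3 (lmFit and trended eBayes, with genotype alone in the model) and adjusted by the Benjamini-Hochberg method, threshold 0.05. The log2(signal + 16) scale understates differences of dim genes, and MAS5 values of dim probe sets are noisy. Amplification of small RNA amounts can favour 3′ ends. Only 2 arrays per group limit the precision. The limma step was tested on simulated data. Members, gene lists and tests were chosen with earlier results of these data known. Members with values were named by a rule on smallest p, extreme differences, fixed lists and disagreeing probe sets, and other lists by their 3 smallest p. Lists are described by counts and medians, with no test. Differences are also given within each replicate number, since hybridisation control probe sets differed by number in both genotypes. Alternatives were pseudocounts of 1 and 64, a filter at the 75th percentile or none, quantile normalisation, centring of arrays, eBayes with no trend, array weights, the mean of probe sets, other choices of probe sets and symbols, the replicate number as a block, and each array left out. The block with quantile normalisation and the members with a mean log2 of at least 14 were added after the data were seen. No protein sequences were used here. Python 3.11.15 and matplotlib 3.10.9 were used for figures.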

Additional observations from a re-analysis of the deposited data

How the results depend on the processing

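Of the settings run, none called a ribosomal protein gene, and the medians of all members, of large and of small subunit genes stayed positive under every setting that kept all 4 arrays. Leaving out an array moved the members' median between -0.23 and 0.49, the large subunit median between -0.23 and 0.59 and the small subunit median between -0.24 and 0.42. The large minus small difference ranged from 0.0030 with labelled knockout array 2 left out to 0.16 with labelled knockout array 1 left out. The count of all genes past the threshold ranged from 0 to 492, with 492 when labelled knockout array 1 was left out, 104 for labelled knockout array 2, 0 for wild-type array 1 and 1 for wild-type array 2. In these fits the lone array of a genotype is assumed to vary like the other group. With labelled knockout array 1 left out, 5 named genes of other lists passed the limma threshold, Cdca8 at 0.74, Eef1a2 at -1.34, Eif4ebp2 at 0.78, Mrpl43 at 0.83 and Mrps35 at 0.80 on the log2 scale. The cause was not tested.

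With the replicate block, 0 members and 0 genes in all passed the threshold, and the smallest adjusted p of a member was 0.411 by limma. An unadjusted limma p under 0.05 was found for 8 of 42 members and 1359 of 11694 genes, against 0 and 536 without the block. Deviations of same-numbered arrays correlated at r = 0.32 across genes, and the labels give the number no meaning. With the block and quantile normalisation together, 5 of 42 members and 1364 of 11689 genes had an unadjusted limma p under 0.05, and 0 genes passed the threshold.

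Signs of small differences turned under some settings. After quantile normalisation Rpl22l1 was -0.071, Rpl38 -0.0006, Rps20 -0.021, Rps24 -0.094, Rps28 -0.068, Rps29 -0.065 and Rps4x -0.023. After centring Rpl22l1 was -0.043, Rps24 -0.056, Rps28 -0.030, Rps29 -0.019 and Rps4x -0.0068. With the mean of probe sets Rpl37a was -0.27, Rpl7 -0.046, Rps24 -0.19, Rps4x -0.18, Eef1d -0.15, Eef2 -0.027 and Eif4ebp2 -0.096, while Rps14 was 0.098 and Rps9 0.053. Without probe sets of suffix x or s Rps24 was -0.38 and Rps9 0.068. With several-gene probe sets Rpl12 was 0.15. Centring lowered the share of all genes above 0 to 46.1%, against 55.9%, with the median of all genes at -0.03 in place of 0.04. The mean of probe sets gave 47.1%, and no filter 48.2%.

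Leaving out each array in turn gave these ranges of the log2 difference. In the large subunit Rpl11 had -0.25 to 0.46, Rpl12 -0.39 to 0.24, Rpl14 -0.076 to 0.34, Rpl22l1 -0.14 to 0.19, Rpl27 -0.36 to 0.76, Rpl27a -0.22 to 0.49, Rpl37a -0.26 to 0.48, Rpl38 -0.27 to 0.50, Rpl39l -0.046 to 0.77, Rpl41 -0.20 to 0.87, Rpl7 -0.16 to 0.45, Rpl8 -0.15 to 0.78, Rplp0 -0.22 to 0.81 and Rplp2 -0.27 to 0.86. In the small subunit Fau had -0.15 to 0.63, Rps10 -0.22 to 0.51, Rps14 -0.25 to 0.064, Rps19 -0.24 to 0.60, Rps2 -0.25 to 0.69, Rps20 -0.23 to 0.40, Rps24 -0.30 to 0.32, Rps26 -0.13 to 0.74, Rps27l -0.19 to 0.71, Rps28 -0.33 to 0.40, Rps29 -0.31 to 0.41, Rps4l -0.020 to 0.50, Rps4x -0.28 to 0.40, Rps7 -0.23 to 0.47, Rps9 -0.32 to 0.095 and Rpsa -0.19 to 0.67. Among elongation factors Eef1a2 had -1.34 to 0.68, Eef1d -0.21 to 0.60 and Eef2 -0.075 to 0.50. Rpl39 stayed negative, from -0.78 to -0.43, and Rps6 and Rpl7l1 stayed positive.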
